A study of Mus musculus with 13 samples.

Results

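The 10 genes described here encode the vascular endothelial growth factor (VEGF) ligands Vegfa, Vegfb, Vegfc, Vegfd and Pgf, the receptor tyrosine kinases Kdr, Flt1 and Flt4, and the neuropilin co-receptors Nrp1 and Nrp2. They were chosen by gene symbol out of 19537 genes named on the arrays, and each was read by 1 probe set that carried no other symbol. VEGF ligands are secreted dimers that bind the receptor kinases on endothelial cells and drive their growth, survival and permeability. VEGF-A, the product of Vegfa, acts mainly through the Kdr and Flt1 proteins, VEGF-B and placental growth factor (the Pgf product) bind the Flt1 protein, and VEGF-C and VEGF-D bind the Flt4 protein. The neuropilins bind VEGF ligands as well as class 3 semaphorins. In the liver, hepatocytes and stellate cells are known sources of ligand for the adjoining sinusoidal endothelium, which depends on VEGF for its fenestrated state.

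Gene expression was profiled on 13 arrays of cells from naive C57BL/6 mice aged 6 to 10 weeks, with no transgene or treatment named for any group. Hepatocytes, which form the liver parenchyma, macrophages of the sinusoid (Kupffer cells) and the endothelial cells of the liver sinusoids (LSEC) were freshly sorted and had 3 arrays each. Hepatic stellate cells (HSC), which lie along the sinusoids and can become myofibroblasts, were measured only after culture in serum-containing medium, with 2 arrays at day 1, 1 array at day 7 and 1 array at day 14. For the sort gates, the animals behind each array and any pooling, nothing further is known here, so p-values measure the spread between arrays titled as biological replicates. HSC were cultured and the other cells were not, so population and culture cannot be told apart in any comparison with HSC. In bulk RNA, fewer cells of a type and less RNA per cell cannot be told apart either.

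Values are probe-set intensities on a linear scale, and errors of intensities are SD. Replicate arrays correlated at r = 0.984 to 0.996 across genes on the log2 scale, and genes are not independent replicates. Each labelled population read its own markers, with all 10 hepatocyte, all 10 Kupffer cell, all 10 LSEC and all 12 HSC markers above the median of all values (224.5) on every hepatocyte, Kupffer cell, LSEC and 1-day HSC array respectively. Markers of other cells were read too. The summed intensity of the 10 hepatocyte markers was 10010 to 16423 on the 1-day HSC arrays, against 125976 to 132141 in hepatocytes and 1245 to 1276 in longer HSC cultures. The summed intensity of the 10 LSEC markers was 47530 to 64867 in LSEC, 10910 to 11751 in 1-day HSC, 2148 at day 7 and 2562 at day 14. On the Kupffer cell arrays that sum was 14451 to 16836, of which Cdh5 alone made up 9141 to 10040. Stab1 read 1807 to 1951 there, Clec4g 811.7 to 1504, Pecam1 1070 to 1319 and Cd300lg 277.4 to 356.6. Stab2, Lyve1, Oit3, Cldn5 and F8 read between 219.4 and 502.1. Of the 10 LSEC markers, 9 were above the median on every Kupffer cell array. Of the LSEC arrays, replicate 3 had the lowest value for 8 of the 10 LSEC markers, at a median of 72.2% of the mean of the other two. The part of these other cells' RNA or of LSEC replicate 3 in the results was not tested. Values without that replicate are given for the receptors and wherever it changed a call or moved a named value by over 1.5 times.

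The first comparison asked which liver population carried each gene. Of the 10 genes, 9 passed the filter on low values among hepatocytes, Kupffer cells, LSEC and 1-day HSC, and Vegfd, below the median intensity on each of those 11 arrays, did not. To be called higher in a population, a gene needed a log2 difference of at least 1 with an adjusted p below 0.05 against each of the other 3 (limma, Benjamini-Hochberg over 12081 genes). LSEC stood highest for all 3 receptor kinases, for Nrp2 and for Pgf, that is for 5 of the 9 genes tested, where 2.35% of all genes were called higher in LSEC. Vegfc was the 1 gene called higher in 1-day HSC, where 2.59% of all genes were, and Vegfa was the 1 gene called lower in Kupffer cells, where 2.28% of all genes were. No member was called higher in hepatocytes or in Kupffer cells, where 6.8% and 6.53% of all genes were, and none was called lower in hepatocytes (2.72% of all genes), LSEC (0.406%) or 1-day HSC (0.281%). Pgf, Kdr, Flt4, Nrp2 and Vegfc passed the filter only through LSEC or HSC arrays (Nrp2 had 1 other array above the median, at 232.3), so some difference was built into their presence in the test.

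Taken pair by pair, with the same thresholds, the 9 genes divided in the same way. LSEC exceeded 1-day HSC for 6 of them, where 5.24% of all genes did, hepatocytes for 6 (12.5%) and Kupffer cells for 7 (10.3%). HSC at day 1 exceeded hepatocytes for 6 (12.3%), Kupffer cells for 6 (12.9%) and LSEC for 1, Vegfc (5.61%). Hepatocytes exceeded Kupffer cells (12% of all genes) and LSEC (10%) for 1, Vegfa, and 1-day HSC for 0 (10.1%). Kupffer cells exceeded hepatocytes (13.7%), LSEC (9.54%) and 1-day HSC (11.7%) for 0 of the 9.

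The start sites of the 3 receptor kinase genes are shown because these genes were high together in LSEC. Each window runs from 250 bases before to 50 bases after the annotated start (RefSeq, GRCm38.p6), 5′ to 3′ on the gene's strand. Capitals mark, on either strand, the GC box GGGCGG bound by Sp1-family factors, the ETS-type site GGAAGT, the TATA box TATAAA and the cAMP response element TGACGTCA. The Kdr window is chr5:75978406-75978705 on the minus strand, the Flt1 window chr5:147725962-147726261 on the minus strand, and the Flt4 window chr11:49609429-49609728 on the plus strand.
Kdr: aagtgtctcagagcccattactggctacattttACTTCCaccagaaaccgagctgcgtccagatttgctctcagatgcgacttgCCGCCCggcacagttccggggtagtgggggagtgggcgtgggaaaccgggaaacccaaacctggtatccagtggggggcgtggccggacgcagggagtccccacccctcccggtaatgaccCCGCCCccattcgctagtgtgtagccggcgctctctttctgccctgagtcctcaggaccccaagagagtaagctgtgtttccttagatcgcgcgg
Flt1: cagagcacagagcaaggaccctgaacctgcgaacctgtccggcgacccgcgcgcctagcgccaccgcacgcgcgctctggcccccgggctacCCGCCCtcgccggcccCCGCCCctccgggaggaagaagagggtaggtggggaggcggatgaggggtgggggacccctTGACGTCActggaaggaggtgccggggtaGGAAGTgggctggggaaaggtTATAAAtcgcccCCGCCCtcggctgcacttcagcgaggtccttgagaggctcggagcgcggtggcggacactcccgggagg
Flt4: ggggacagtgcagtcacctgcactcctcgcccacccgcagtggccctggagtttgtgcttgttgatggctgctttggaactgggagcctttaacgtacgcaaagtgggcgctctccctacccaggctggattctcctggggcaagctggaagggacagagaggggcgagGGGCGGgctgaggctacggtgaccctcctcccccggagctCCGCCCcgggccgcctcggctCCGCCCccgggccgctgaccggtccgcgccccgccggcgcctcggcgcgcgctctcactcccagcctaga
The Kdr window held 2 GC boxes and 1 ETS-type site. The Flt1 window held 3 GC boxes and 1 each of the ETS-type site, the TATA box and the cAMP response element. The Flt4 window held 3 GC boxes and none of the other motifs. Over 32851 such windows, 35.7% held a GC box, 23.8% the ETS-type site, 13.6% the TATA box and 1.79% the cAMP response element, so these matches are a description and not a site.

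Kdr, the main signalling receptor for VEGF-A, read 3747, 3519 and 1422 on the LSEC arrays and 413.7 and 448.9 on the 1-day HSC arrays. In Kupffer cells it read 218.7, 178.3 and 127.8, and in hepatocytes 104.6, 102.1 and 122.3. The LSEC arrays did not overlap with any other, and LSEC replicate 3 read well below the other two. LSEC exceeded hepatocytes by 3.84 on the log2 scale (SE 0.276, adjusted p = 9.28e-08), Kupffer cells by 3.43 and 1-day HSC by 2.42 (SE 0.309, adjusted p = 4.75e-05). In turn 1-day HSC exceeded Kupffer cells by 1.01 (adjusted p = 0.012), and Kupffer cells and hepatocytes did not differ beyond their spread (0.41, 95% interval -0.20 to 1.01). Without LSEC replicate 3 the difference from 1-day HSC was 2.85.

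Flt4, the receptor for VEGF-C and VEGF-D, known from lymphatic vessels as well as sinusoids, followed the same order. It read 3878, 3609.9 and 2213 in LSEC and 470.3 and 438.1 in 1-day HSC. The Kupffer cell arrays read 223.1, 184.2 and 161.8, and the hepatocyte arrays 130.9, 138.4 and 163.4, so that LSEC and HSC stood apart from both. LSEC exceeded 1-day HSC by 2.59 (SE 0.19, adjusted p = 4.27e-07) and hepatocytes by 3.83. Without LSEC replicate 3 the difference from 1-day HSC was 2.83. Of the 6 lymphatic endothelium markers measured, which include Flt4 itself, 3 were above the median of all values on every LSEC array, with a sum of 10244 to 12950 there, 8132 on the 1-day HSC arrays and 924.1 to 1543 in Kupffer cells and hepatocytes. These were Flt4, Lyve1 (8384, 7826 and 7530.3), which sinusoidal endothelium shares, and Pdpn (314.5, 238.2 and 230.8). The other 3 were below it, with Prox1 at 121, 118.3 and 85.9, Mmrn1 at 33.5 to 41 and Reln at 150.3 to 211. On the 1-day HSC arrays most of the sum came from Reln (4331 and 4597), which is also in the HSC list, and Pdpn (2287 and 2176). Lyve1 read 812.4 and 725.9 there, Prox1 143.9 and 122.3, and Mmrn1 86.9 and 72.5. The part of lymphatic endothelium in the Flt4 values was not tested.

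Flt1, which binds VEGF-A, VEGF-B and placental growth factor and has a soluble decoy form, was the least restricted of the receptor kinases. It read 1882, 1761 and 1295 in LSEC and 737.9 and 767.7 in 1-day HSC. The hepatocyte arrays read 207, 238.8 and 241.2 and the Kupffer cell arrays 238.7, 192 and 204.5, and these overlapped with each other. LSEC exceeded hepatocytes by 2.46 (SE 0.122, adjusted p = 2.64e-09) and 1-day HSC by 1.03 (SE 0.136, adjusted p = 6.05e-05). The latter difference fell below the minimum of 1, at 0.92 with the pooled median as the added constant, 0.99 after quantile normalization, 0.93 without LSEC replicate 1 and 0.98 without LSEC replicate 2, and was 1.19 without LSEC replicate 3. The stretch of transcript that the probe set covers is not given in the sources used here, so full-length and soluble receptor forms were not told apart.

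Nrp2, the neuropilin known for binding VEGF-C, differed from hepatocytes and Kupffer cells by more than any other member did. It read 6027, 6611 and 5398 in LSEC against 990.3 and 877.7 in 1-day HSC. The hepatocyte arrays lay between 185 and 232.3 and the Kupffer cell arrays between 153.3 and 181.6. LSEC exceeded Kupffer cells by 4.59 (SE 0.0976, adjusted p = 1.61e-12), hepatocytes by 4.41 and 1-day HSC by 2.58 (adjusted p = 3.15e-09). HSC at day 1 exceeded hepatocytes by 1.83, and hepatocytes and Kupffer cells did not differ beyond their spread (0.18, 95% interval -0.03 to 0.39). Without LSEC replicate 3 the difference from 1-day HSC was 2.66.

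Nrp1, the partner of Kdr for VEGF-A, was read well above the median in every population. The LSEC arrays read 2747, 3078 and 1472, the hepatocyte arrays 859.5, 1534 and 1406, and the Kupffer cell arrays 1389, 1479 and 1172. The 1-day HSC arrays read 825.1 and 922.8 and had the lowest mean. LSEC replicate 3 fell within the ranges of hepatocytes and Kupffer cells, and LSEC passed against 1-day HSC alone, by 1.33 (SE 0.277, adjusted p = 0.0018). Against hepatocytes the difference was 0.87 (95% interval 0.33 to 1.41) and against Kupffer cells 0.76 (95% interval 0.22 to 1.30). Without LSEC replicate 3 these were 1.19 and 1.07 and both passed, and the former also passed without hepatocyte replicate 2 (1.02).

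**Figure D1:**
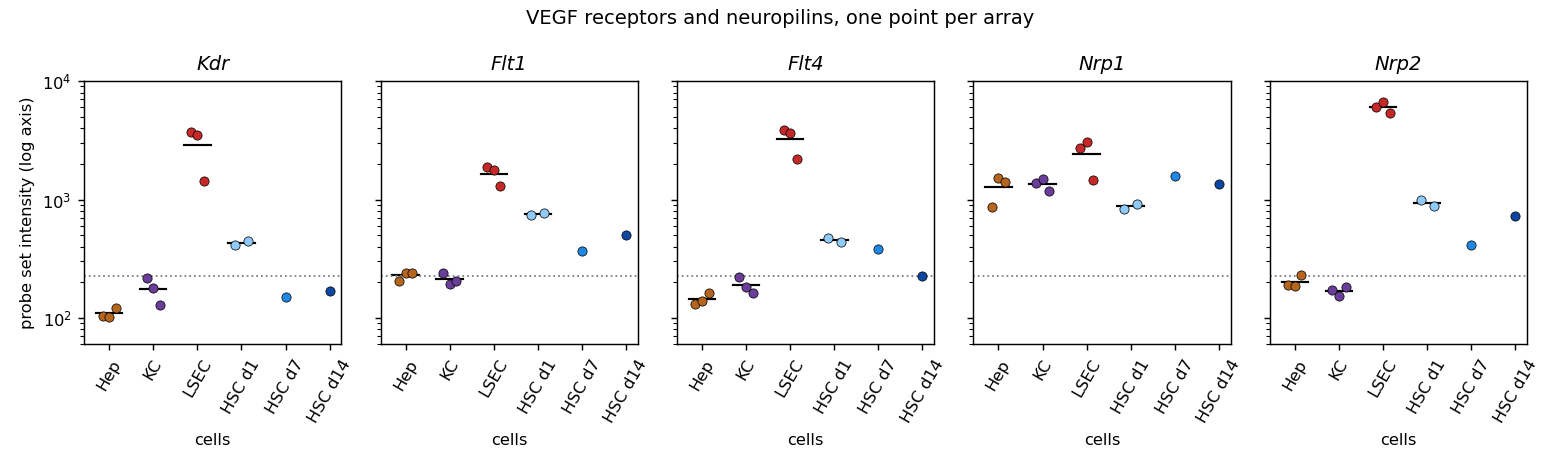
Probe-set intensity (log axis) of the 3 VEGF receptor kinases and the 2 neuropilins, with 1 point per array, a bar at the mean of groups with over 1 array and a dotted line at the pooled median of 224.5. Groups are hepatocytes (Hep), Kupffer cells (KC), LSEC and HSC after 1, 7 and 14 days (d1, d7, d14). LSEC lie above every other group for Kdr, Flt1, Flt4 and Nrp2, while Nrp1 is read above 825 on all 13 arrays.

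The ligands divided between the populations. Vegfa, the main ligand, was highest among the 4 populations in hepatocytes, at 3773, 4149 and 4841. The 1-day HSC arrays read 2024 and 2253, the LSEC arrays 893.7, 925 and 1431, and the Kupffer cell arrays 230.4, 275 and 286.6, with no overlap between any of the 4 groups. Hepatocytes exceeded Kupffer cells by 3.64 (SE 0.154, adjusted p = 4.04e-10) and LSEC by 1.92 (adjusted p = 2.69e-07). Kupffer cells were below each other population, LSEC being the nearest at a difference of -1.72 (adjusted p = 8.37e-07). Against 1-day HSC the hepatocyte excess, 0.96 (SE 0.173, adjusted p = 0.000346), stayed short of the minimum of 1, which it passed without hepatocyte replicate 1 (1.04) or without HSC day 1 replicate 2 (1.03). Of the 10 hepatocyte markers, 7 were above the median on both 1-day HSC arrays, and their part in the Vegfa value there was not tested.

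Vegfb, a ligand of Flt1 linked to fatty acid handling, was read on every array, between 890.1 and 3126. LSEC read 2139, 2647 and 3126 and did not overlap with any other array. The 1-day HSC arrays read 1425 and 1141, the hepatocyte arrays 1041, 1127 and 1277, and the Kupffer cell arrays 1119.9, 890.1 and 900.4. Hepatocytes overlapped with both, while Kupffer cells and 1-day HSC did not overlap with each other. LSEC exceeded Kupffer cells by 1.36 (SE 0.141, adjusted p = 3.19e-06) and hepatocytes by 1.13 (adjusted p = 1.42e-05). Against 1-day HSC the difference was 0.99 (SE 0.158, adjusted p = 0.000284), below the minimum of 1. It passed with no added constant (1.03), with arrays centred on their medians (1.06), without LSEC replicate 1 (1.12) and without HSC day 1 replicate 1 (1.14). Vegfa, Vegfb and Vegfd read highest of the LSEC arrays in replicate 3, the other 7 members lowest.

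Pgf, whose product binds Flt1 and not Kdr, read 4249, 4339.9 and 3404 in LSEC and 675.9 and 547.1 in 1-day HSC. Hepatocytes read 211.3, 85.5 and 163.5 and Kupffer cells 113.6, 118.1 and 105, all below the median of all values. LSEC exceeded Kupffer cells by 4.38 (SE 0.171, adjusted p = 2.76e-10), hepatocytes by 4.14 and 1-day HSC by 2.55 (SE 0.191, adjusted p = 4.97e-07). Among the 284 genes called higher in LSEC, ordered by the difference from the nearest population, Flt4, Nrp2 and Pgf held ranks 22, 23 and 24, Kdr rank 36 and Flt1 rank 280.

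Vegfc, the lymphangiogenic ligand of Flt4, was the only ligand called higher in 1-day HSC. Only through those cultured arrays did it pass the filter. It read 1112 and 1028 on the 1-day HSC arrays. LSEC read 203.3, 219.3 and 181.5, hepatocytes 169.7, 153.1 and 139.6, and Kupffer cells 119, 125.8 and 128.4, all below the median of all values. HSC at day 1 exceeded LSEC by 2.02 (SE 0.0889, adjusted p = 4.01e-09), hepatocytes by 2.28 and Kupffer cells by 2.48. Its receptor gene Flt4 and co-receptor gene Nrp2 were, as given above, highest in LSEC.

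**Figure D2:**
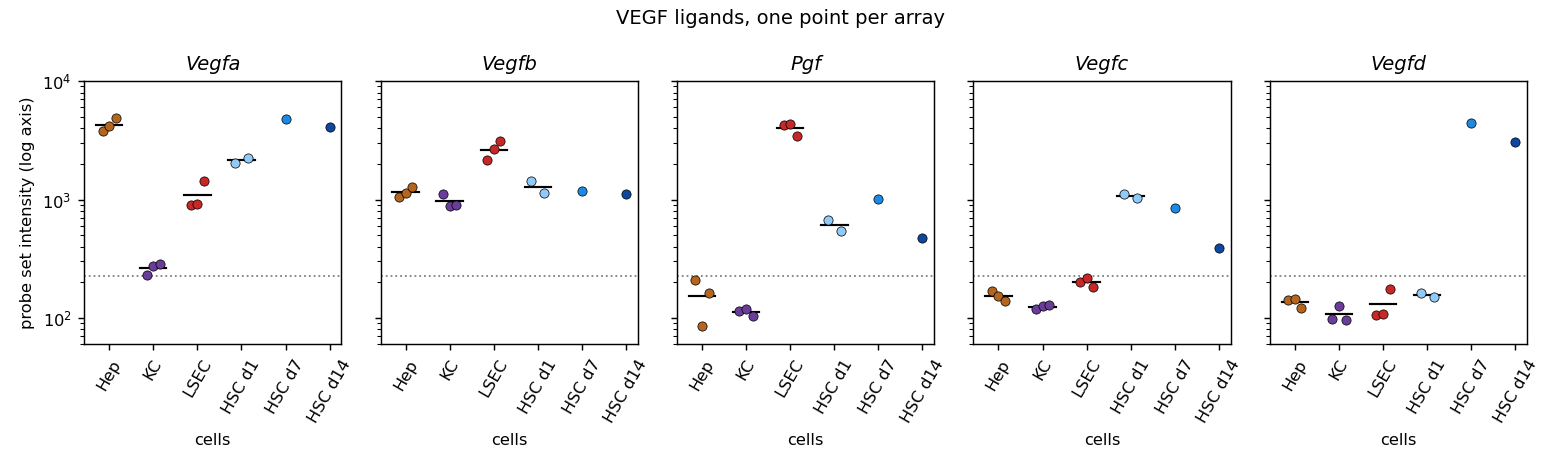
Probe-set intensity (log axis) of the 5 VEGF ligand genes, with 1 point per array, a bar at the mean of groups with over 1 array and a dotted line at the pooled median of 224.5. Groups are hepatocytes (Hep), Kupffer cells (KC), LSEC and HSC after 1, 7 and 14 days (d1, d7, d14). Vegfa is lowest in Kupffer cells, Pgf and Vegfb are highest in LSEC, Vegfc is highest in 1-day HSC, and Vegfd is above the median only on the day 7 and day 14 HSC arrays.

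The second comparison asked how the family differed between HSC after 7 or 14 days and after 1 day of culture. All 10 genes passed the filter over 13 arrays. Vegfd and Vegfa rose, where 5.52% of 12368 genes were higher in long culture, and Kdr fell, where 4.27% were lower. The day 7 and day 14 arrays were merged for this test, and its spread came from all groups, so the error is not that of repeated HSC cultures. The median difference of all genes was -0.04.

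Vegfd, a ligand of Flt4 first known as a gene induced by the transcription factor Fos, was the member that moved furthest. It read 162.9 and 151.9 at day 1, 4395 at day 7 and 3032 at day 14, while the 9 arrays of freshly sorted cells lay between 96.9 and 176.1. It rose by 3.96 on the log2 scale (SE 0.177, adjusted p = 8.21e-09) and held rank 4 among the rises of all 12368 genes. Vegfd passed the filter only through the 2 long-culture arrays. With the 4 HSC arrays alone its adjusted p was 0.00127, the highest over 23 alternatives, whose lowest was 4.13e-09. Summed markers of other mesenchymal cells were also higher in long culture. The 7 portal fibroblast markers summed to 3886 to 4427 at day 1, 14792 at day 7 and 19841 at day 14. Of these, Fbln2, Mfap5, Thy1 and Eln rose, while Dpt fell from 727.9 and 1058 to 149.7 and 51.9. Cd34 and Gli1 stayed between 183.5 and 263.9 on the HSC arrays. Above the median were 5 of the 7 at day 1, 4 at day 7 and 5 at day 14. The 7 myofibroblast markers summed to 23447 to 27064 at day 1, 58724 at day 7 and 63508 at day 14. The 6 vascular smooth muscle markers summed to 6223 to 6475 at day 1, 16571 at day 7 and 16168 at day 14. They include Cnn1, also a myofibroblast marker, and Des, also an HSC marker. Cnn1 went from 157.7 and 160.3 to 5888 and 6146, and Myh11 from 287.3 and 456.8 to 2824 and 2849. Smtn, at 2412 and 2272 on day 1, read 2727 at day 7 and 1990 at day 14. The 6 mesothelium markers summed to 1024 to 1063, 1883 and 2776, with 1 above the median at day 1 and 4 at days 7 and 14. The part of any of these cell types in the Vegfd rise was not tested. The Vegfd window is chrX:164373272-164373571 on the plus strand (RefSeq, GRCm38.p6). It is shown because, unlike those of the receptor kinases, it holds no GC box, which 35.7% of all windows held.
Vegfd: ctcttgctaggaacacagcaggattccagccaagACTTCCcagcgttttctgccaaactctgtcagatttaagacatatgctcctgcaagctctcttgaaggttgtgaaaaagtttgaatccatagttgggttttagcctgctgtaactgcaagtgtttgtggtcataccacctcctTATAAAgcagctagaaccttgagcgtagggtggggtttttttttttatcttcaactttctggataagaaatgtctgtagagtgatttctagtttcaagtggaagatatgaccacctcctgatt
With the same marks, the Vegfd window held 1 TATA box, 1 ETS-type site and 0 GC boxes. The GC box was found in 10 of the 12 windows listed for the family, and the other window without it was the second of the pair for Pgf. The AP-1 site TGANTCA, bound by Fos and Jun proteins, was searched on both strands and found in 0 of the 12 windows, against 7.81% of all windows, which says only that these letters are not in this stretch.

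Vegfa read 2024 and 2253 at day 1, 4776 at day 7 and 4066 at day 14. Both long-culture arrays lay above both day 1 arrays and within the hepatocyte range of 3773 to 4841. It rose by 1.02 (SE 0.19, adjusted p = 0.000881). The rise was below the minimum of 1 with the pooled median as the added constant (0.97), without HSC day 1 replicate 1 (0.94) and without the day 7 array (0.90).

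Kdr read 413.7 and 448.9 at day 1, 149.1 at day 7 and 169 at day 14, the long-culture arrays lying in the range of Kupffer cells and below the median of all values. It fell by 1.09 on the log2 scale (SE 0.331, adjusted p = 0.0174). The call was lost with the pooled median as the added constant (-0.77, adjusted p = 0.061), without either day 1 array (adjusted p = 0.0543 and 0.0828) and without the day 7 array (adjusted p = 0.0694), over a range of 7.44e-05 to 0.0828 among 24 alternatives. Of the other receptor genes, 3 had negative differences that did not reach the minimum, Flt1 at -0.70 (adjusted p = 0.00382), Nrp2 at -0.69 (adjusted p = 0.00861) and Flt4 at -0.50 (adjusted p = 0.106).

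The median of the LSEC markers was also lower in long culture, and of these receptor genes Kdr came nearest to it at days 7 and 14. On the 1-day HSC arrays the 10 LSEC markers read at a median of 13.25% of their LSEC mean, and at 3.76% at day 7 and 3.68% at day 14. Kdr read at 14.9%, 5.15% and 5.84% of its LSEC mean, in the same order. Flt4 read at 14.0%, 11.9% and 6.98%, and Nrp2 at 15.5%, 6.82% and 12.03%. Flt1 stood at 45.7%, 22.3% and 30.6%, above each of the markers but Cd300lg, which was itself read near the median in LSEC, at a mean of 259.2. Cdh5 went from 43.2% to 1.71% and 3.04%. These percentages hold no correction for background. Hepatocyte arrays read means of 109.7 for Kdr, 229 for Flt1, 144.2 for Flt4 and 203 for Nrp2, against LSEC means of 2896, 1646, 3234 and 6012. The part of LSEC RNA in the receptor values of HSC was not tested.

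**Figure D3:**
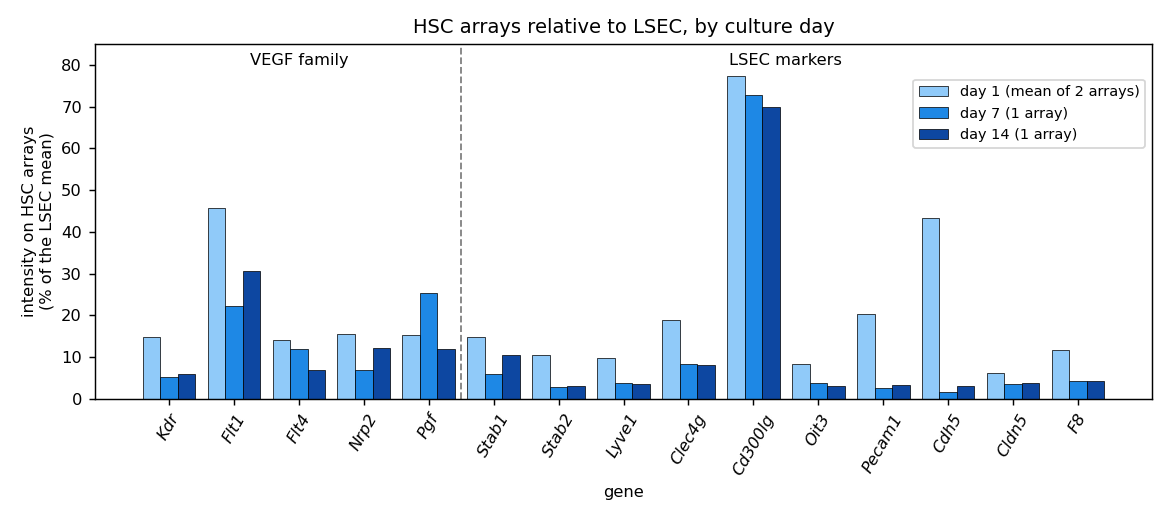
Intensity on the HSC arrays as a percentage of the LSEC mean (bars, starting at 0) for 5 VEGF family genes and 10 LSEC markers, at day 1 (mean of 2 arrays), day 7 and day 14 (1 array each). After day 1 most LSEC markers read at a few percent, Kdr at 5.15% and 5.84% (14.9% at day 1) and Flt1 at 22.3% or more.

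Among the other members Vegfc differed by -0.79 (adjusted p = 0.0105), short of the minimum, and the long-culture arrays themselves differed. It read 1112 and 1028 at day 1, 854.5 at day 7 and 390.9 at day 14, and without the day 7 array the difference was -1.28 and passed. Pgf read 675.9 and 547.1 at day 1, 1013 at day 7 and 473.8 at day 14, which placed the day 1 arrays between the later ones (difference 0.18, 95% interval -0.44 to 0.79). Nrp2 read 409.8 at day 7 and 723.3 at day 14, and without the day 14 array its difference from day 1 was -1.04 and passed. Day 14 was set against day 7 by values alone, since each had 1 array: Vegfc was 2.19 times and Pgf 2.14 times higher at day 7, and Nrp2 1.77 times higher at day 14. Nrp1 read 1581 and 1364 in long culture against 825.1 and 922.8 at day 1 (0.70, adjusted p = 0.0758). Vegfb was level, at 1175 and 1119 against 1425 and 1141 (-0.14, 95% interval -0.51 to 0.22).

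**Figure D4:**
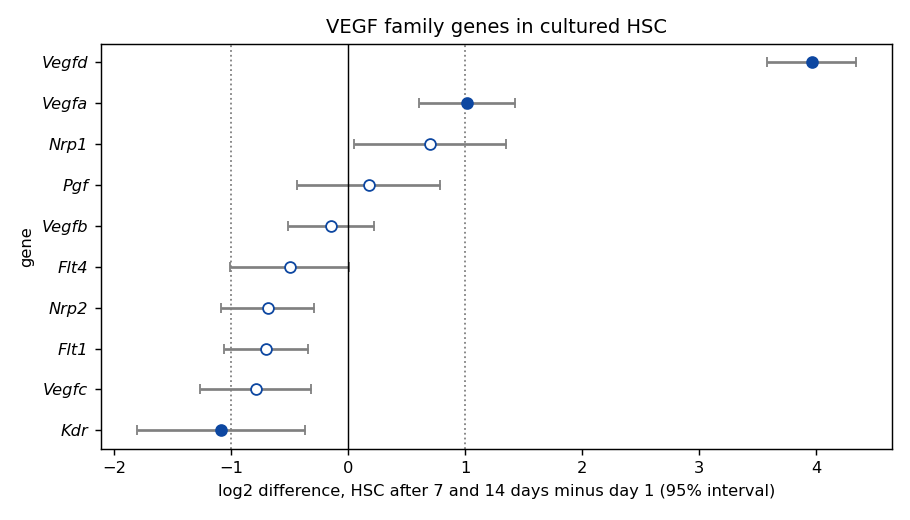
Log2 difference between HSC after 7 and 14 days and HSC after 1 day for the 10 genes, with 95% intervals from the fit, filled points marking genes past both thresholds and dotted lines at the minimum difference of 1. Vegfd (3.96) and Vegfa (1.02) lie to the right and Kdr (-1.09) to the left, and the intervals of Vegfa and Kdr cross the minimum.

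Genes that act with the family were described from lists, by counts and by the median difference of a population from the mean of the other 3. List genes entered through the same filter, so those high in a single population had some difference built into their presence in the test. LSEC were the only endothelial population, so counts of endothelial list genes there are a description and no support for the family result. Among 16 tested genes for receptor partners and phosphatases, 3 were higher in LSEC (2.35% of all genes were) and 1 was lower (0.406% of all genes), and the median was 1.72 against 0.06 for all genes. Robo4 (2.23 above the nearest population) and Ptprb (2.09), the endothelial phosphatase that restrains Tie2 and Kdr signalling, were higher, as was Efnb2 (1.34), which takes part in receptor internalisation. The phosphatase gene Ptprj was lower by 2.68, and Cdh5 (0.52 above Kupffer cells) and Emcn (0.99 above the nearest) did not pass. Of 24 tested genes of receptor signal transduction 3 were higher in LSEC and 0 lower, against the same shares of all genes, with a median of 0.13. These were the endothelial nitric oxide synthase gene Nos3 (1.97), the phospholipase gene Plcg1 (1.39) and the kinase gene Fyn (1.29). Nos3 passed the filter only through LSEC arrays, reading at most 195 in the other populations. Grb2 and Src did not pass, differing from the mean of the other populations by -0.17 and -0.83.

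Genes known to respond to VEGF in endothelium were higher in LSEC for 9 of 21 tested (2.35% of all genes) and lower for 0 (0.406%), with a median of 1.31 against 0.06. They included the peptide gene Apln (2.63), the Notch-responsive gene Nrarp (2.62), Angpt2 (2.23), Esm1 (2.04) and the Notch ligand gene Dll4 (1.70, and 2.31 without LSEC replicate 3). Nrarp and the also called Kcne3 and Sele passed the filter only through LSEC arrays, reading at most 172.8 on the other arrays of that fit. Outside LSEC, Dll4 was above the median only on Kupffer replicate 2, at 233.7. Rcan1 and Nr4a1 did not pass and read below the mean of the other populations, at -0.83 and -1.39. Endothelial transcription factor genes were higher in LSEC for 6 of 19 (2.35% of all genes), led by Sox7 (2.82), Erg (1.98) and Sox17 (1.85), and lower for 0, with a median of 1.28. Class 3 semaphorins and plexins, the other neuropilin system, were higher in LSEC for 2 of 8 (2.35% of all genes), Plxna2 (2.29) and Sema3f (1.87), and in 1-day HSC for 3 of 8 (2.59% of all genes), Sema3d (3.46), Sema3a (2.25) and Plxna1 (1.08). Plxna1 was not called without LSEC replicate 1 (0.99) or without HSC day 1 replicate 2 (0.97). Sema3d and Sema3a passed the filter only through the 1-day HSC arrays, reading at most 151.9 on the fresh-cell arrays.

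Among 17 tested genes whose products process or capture VEGF ligands, 5 were higher in 1-day HSC (2.59% of all genes) and 0 lower (0.281%). The median of the list was 1.18 against -0.04 for all genes. Ccbe1 (1.77) and Adamts14 (1.46), which take part in the maturation of VEGF-C, were among the 5 higher genes. The others were Thbs1 (3.52), Ccn2 (1.05) and Vasn (1.10), the last not called without HSC day 1 replicate 2 (0.84). Ccbe1, Adamts14 and Vasn passed the filter only through the 1-day HSC arrays, reading at most 220.9 on the fresh-cell arrays. Some difference was thus built into their presence in the test. Ccbe1 read 889.1 and 785.4 at day 1, 1847 at day 7 and 629.4 at day 14, and between 135.2 and 220.9 on the 9 arrays of fresh cells. Adamts3, whose product cleaves VEGF-C, read 285 and 310.9 at day 1 and did not pass (0.12 above the nearest). In long culture 3 of 18 genes of this list rose (5.52% of all genes), Thbs2 by 3.20, Htra1 by 2.58 and Hspg2 by 1.61, and 0 fell (4.27%). The Htra1 rise was 1.95 without the day 14 array and 3.21 without the day 7 array.

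In the hypoxia list, which holds regulators and targets of the hypoxia-inducible factors that control Vegfa, 6 of 21 genes were lower in Kupffer cells (2.28% of all genes) and 0 higher (6.53%), with a median of -0.73 against -0.08. They were Adm (-2.53), Egln3 (-1.83), Pgk1 (-1.63), Slc2a1 (-1.49), Ndrg1 (-1.45) and Bnip3 (-1.02), while Hif1a (-0.06) did not pass. Car9 went the other way in Kupffer cells, at 0.71 above the nearest population, short of the minimum of 1. Bnip3 was not called without Kupffer replicate 2 (-0.98) or without HSC day 1 replicate 2 (-0.82). In hepatocytes 3 of the 21 were higher (6.8% of all genes), Bnip3 (1.64), Ddit4 (1.25) and Egln3 (1.14), and 0 lower (2.72%). In long HSC culture 1 of 21 rose, the collagen hydroxylase gene P4ha1 by 1.17, and 0 fell. That share was near that of all genes (5.52% rose and 4.27% fell), and the median was -0.04, that of all genes. The part of hypoxia in the Vegfa values of any population or culture day was not tested. Of 16 tested genes for other vessel and pericyte growth factors and receptors, 2 rose in long culture (5.52% of all genes), Pdgfd by 2.47 and Pdgfc by 1.57. In turn 3 fell (4.27%), Tek by 1.73, Tie1 by 1.39 and Hgf by 1.58. Tek read 3128 to 4887 in LSEC, 541.7 and 541.1 in 1-day HSC, and 118.5 and 94.1 at days 7 and 14. For Tie1 these values were 3838 to 5336, 731.4 and 591.5, and 187.8 and 213.3. The part of LSEC RNA in these 1-day HSC values was not tested. Hgf read 1196 and 1479 at day 1, 704.7 at day 7 and 202 at day 14. Its fall was not called without the day 14 array (-0.84, adjusted p = 0.315), and was -2.31 without the day 7 array (adjusted p = 0.00969). It was also not called without either day 1 array (adjusted p = 0.0829 and 0.155), hepatocyte replicate 2 (0.0511) or Kupffer replicate 3 (0.0501).

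Likeness across arrays was measured by the Pearson correlation over the 13 arrays on the log2 scale, which is set largely by the groups that arrays share. The genes most like Kdr were Dchs1 (0.993), F8 (0.990) and Rasip1 (0.988). Those most like Flt4 were Notch4 (0.995), Plekhg1 (0.994) and Hecw2 (0.992). For Nrp2 they were Angpt2 (0.992), Esm1 (0.990) and Pde2a (0.987), and for Flt1 they were Angpt2, Nrp2 and Esm1 (each 0.985). Pgf was most like Eif4h (0.989), Atrn (0.986) and Sox4 (0.984). Vegfa was most like Hsd17b7 (0.985), Dstn (0.984) and Fads2 (0.980), Vegfb most like Adgrg1 (0.969), Wdr59 (0.957) and Xkr6 (0.957), and Vegfc most like Glis3 (0.990), Rerg (0.985) and Adamts14 (0.984). Vegfd was most like Pak3 (0.995), Scel (0.993) and Sytl5 (0.991), each over 2 arrays that stood apart from the other 11. Nrp1 had the loosest neighbours, Naa38 (0.920), Pnoc (0.891) and Pik3c2b (0.864).

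Kdr lies beside the receptor kinase gene Kit in the RefSeq annotation, with Pdgfra next in the same cluster. Kit and Pdgfra are given after their values were seen. Kit read 6010.1, 5275 and 5588 in LSEC, 1138 and 1125 in 1-day HSC, and 113.1 and 121.2 at days 7 and 14. Pdgfra, a mesenchymal receptor gene, read 129 to 146.3 in LSEC, 3672 and 2868 in 1-day HSC and 2119.9 and 1861 in long culture. Of the 3 neighbours Kdr and Kit were thus high in LSEC and Pdgfra in HSC.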

How the data were processed

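RNA of 13 samples was measured on Affymetrix arrays. The deposited values are linear intensities, 1 for each of 25194 probe sets per array, running from 10.6 to 28854, with array medians of 216.5 to 232.9. Affymetrix Expression Console and MAS5 (5.0) appear in the submitters' processing notes, their roles unstated. How background was corrected and probes were summarised is not given in the sources used here, and detection calls were not used here.

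The 21181 probe sets with 1 gene symbol were used (1379 had several and 2634 none), and 21097 were matched by Entrez number to RefSeq genes of GRCm38.p6. For each of 19537 genes the probe set of highest mean was taken. A gene entered a fit if 2 or more of its arrays exceeded 224.5, the median of all values. Intensities were taken as log2(intensity + 82.7), the constant being the pooled 20th percentile, so differences of dim genes are understated.

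Group means were fitted in R 4.3.3 with limma 3.58.1, on 11 arrays for the populations (12081 genes, 7 residual degrees of freedom) and on 13 for culture (12368 genes, 8). Adjusted p-values are two-sided, Benjamini-Hochberg over all genes of a contrast, with thresholds of 0.05 and a log2 difference of 1. The fits were checked on simulated data. Named genes were all members, the 3 most correlated genes of each, and from each list up to 4 called and 2 uncalled genes, with further called genes in short lists. Uncalled genes were picked after their values were seen. The members and lists were chosen with earlier results of these data known. Alternatives covered the constant, filter, normalization, probe sets, spread, samples, replicate block and single arrays left out. The number of arrays limits the precision.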

Additional observations from a re-analysis of the deposited data

How the results depend on the processing

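Of 224 counts of called members under an alternative, 213 stayed within 1.5 times the main count, and of 830 single differences 806 kept their direction and their side of the thresholds. The count of 5 members higher in LSEC ranged from 4 to 6. The 1 member higher in 1-day HSC became 0 with the filter set at 3 arrays, because Vegfc is above the median on only 2 of the 11 arrays. The 2 members that rose in long culture became 1 with the pooled median as constant (Vegfd) and 1 with that filter (Vegfa, since Vegfd is then not tested), and the 1 that fell became 0 with the pooled median. With single arrays left out, the members higher in hepatocytes ranged from 0 to 1, those that rose in long culture from 1 to 2 and those that fell from 0 to 2. In the same runs the culture difference of Vegfb ranged from -0.29 to 0.0065 and that of Pgf from -0.31 to 0.66, both crossing 0. The cause of these changes was not tested beyond the filter. Leaving out single arrays was also run, after seeing the data, for the 116 calls of pathway-list genes, of which 13 were lost in at least 1 run.

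Whether the replicate numbers in the titles pair the arrays is not known. Deviations of same-numbered arrays from their group means correlated at -0.111 to 0.110, and those of different-numbered arrays at -0.125 to 0.131. With 2 or 3 arrays per group this cannot settle the pairing. With the replicate number as a block, 5 members were higher in LSEC, 2 rose and 1 fell in long culture. Over all genes, the counts lower in long culture were 528 in the main analysis, 324 with the pooled median as constant and 794 with none. Those higher in 1-day HSC were 313 and, with the filter at 3 arrays, 184. With the pooled median, genes lower in hepatocytes went from 328 to 212, in Kupffer cells from 276 to 182, in LSEC from 49 to 31 and in 1-day HSC from 34 to 20, and with no constant the last 2 counts were 77 and 58. Values below the pooled median have no detection call, so an absence of signal was not shown for any member.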
